A study of Mus musculus with 10 samples.

Results

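Cyclic nucleotide signalling outside the photoreceptor phosphodiesterase PDE6 was examined in adult mouse retina and newborn mouse cortex. The genes were chosen by symbol from the platform annotation: phosphodiesterases other than PDE6 (Pde), adenylyl cyclases (Adcy), soluble guanylyl cyclase subunits (Gucy1), natriuretic peptide receptors (Npr1, Npr2 and Npr3), subunits and inhibitors of protein kinase A (Prkar, Prkac, Pkia, Pkib and Pkig), protein kinase G (Prkg1 and Prkg2), A-kinase anchoring proteins (Akap), Rap guanine nucleotide exchange factors (Rapgef) and the transcription factor genes Creb1, Crem and Atf1. This gave 53 probes for 50 of the 13840 genes named on the array. Where a gene had several probes, as Creb1 and Prkg1 did, the brightest probe by its mean log2 level stood for it. Genes such as Adcy1, Adcy5, Prkacb, Gucy1b1 and Rapgef4 were not analysed here.

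The retina group held 5 Applied Biosystems arrays hybridised with RNA from 1 pool of 350 adult C57/B6 mice, although the array titles also carry the letters P1, which no label explains. The cortex group held 5 arrays hybridised with RNA from 1 pool of 19 mice at postnatal day 1, given as C57/B6 in the sample descriptions and as Swiss-Webster in the series text. All arrays of 1 tissue carried the same pooled RNA, so every p-value below measures the spread between arrays and not between animals, and tissue, age and possibly strain cannot be told apart. All levels are quantile-normalized log2 intensities of 1 probe, so they compare a gene between tissues and not 1 gene with another.

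Cyclic AMP and cyclic GMP are small messengers made by adenylyl and guanylyl cyclases and broken down by phosphodiesterases. Cyclic AMP acts mainly through protein kinase A (PKA), whose regulatory subunits hold its catalytic subunits inactive and are tethered in the cell by anchoring proteins, and through the Epac exchange factors, while cyclic GMP acts through protein kinase G and ion channels. Retinal photoreceptors are best known for cyclic GMP, which PDE6 breaks down in light, and cyclic AMP in the retina is known to follow dopamine and the daily light cycle.

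As deposited, retina arrays had median intensities of 836 to 987 and cortex arrays of 1255 to 1341, and the Pearson correlation across probes between arrays of a tissue was 0.964 to 0.976. Tissue identity was as labelled: all 8 measured retina markers were higher and all 7 measured cortex markers were lower in retina. Markers of other cells moved as well. Of 7 markers of retinal pigment epithelium 4 were higher and 1 was lower, with a summed log2 level of 18.64 to 18.77 in retina and 19.64 to 19.86 in cortex, where transthyretin carries the sum. All 6 fibroblast and meninges markers were lower (13.52 to 13.79 in retina, 16.98 to 17.06 in cortex), as were both measured erythroid markers (15.01 to 15.30 and 16.92 to 17.30). Of 7 smooth muscle and pericyte markers 1 was lower and the other 6 were as dim as olfactory receptor probes in both tissues (13.06 to 13.51 in retina, 13.81 to 14.10 in cortex). Of 5 endothelial markers 1 was higher and 2 were lower (16.30 to 16.55 and 16.30 to 16.39), and of 4 lens markers 1 was higher (14.92 to 15.26 and 11.06 to 11.57). Their part in the results below was not tested.

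A gene was called when limma's Benjamini-Hochberg adjusted p over all 33012 probes fell below 0.05 and its means differed 2-fold or more. By this rule 15 of the 50 genes were called, 6 higher and 9 lower in retina. Over all probes 25.4% were called, 12.1% higher and 13.3% lower, and over the 13840 named genes 29.0% were called, 14.2% higher and 14.7% lower. The share among the 50 genes, 30.0%, lay close to that of named genes. Their median difference was 0.21 on the log2 scale, against 0.00 over named genes, and ranged from -2.89 (Pde2a) to 4.41 (Pde8a). A further 18 genes had an adjusted p under 0.05 but differed by less than 2-fold, 14 of them with a higher and 4 with a lower mean in retina. The arrays of the tissues did not overlap in 30 of the 50 genes, against 50.3% of named genes and 40.5% of all probes. In pooled tissue RNA, fewer cells of a type and less RNA per cell cannot be told apart.

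The files carry no detection flag, so the 95th percentile of the tissue means of 747 probes named for olfactory receptors, a log2 intensity of 10.74, served as a yardstick for dim signal. Of the 50 genes, 32 lay above it in both tissues, 8 in 1 tissue and 10 in neither. Among the 32 bright genes 7 were called, 1 higher (Adcy6) and 6 lower (Pde2a, Prkar2b, Pkia, Akap7, Pde10a and Pde9a). That share was 21.9%, against 29.0% of all named genes, dim ones included. The share and direction of calls among bright named genes were not examined, so this split only describes the genes listed. Of the 8 genes above the yardstick in 1 tissue, 7 were called, a share that choosing genes on either side of the yardstick favours. By that choice the mean of their dimmer tissue lay below the yardstick, so the sizes of their fold changes are uncertain. The 10 genes below it in both tissues were Adcy3, Adcy4, Adcy7, Adcy10, Npr1, Pde4c, Pkib, Akap3, Akap4 and Rapgef3. Akap3 and Akap4 are known as scaffolds of the sperm tail, at 8.11 and 8.86 in retina against 8.02 and 8.08 in cortex. Repeat arrays spread by a median SD of 0.13 in retina and 0.10 in cortex among the 32 bright genes, and by 0.76 and 0.54 among the 10 dim ones.

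**Figure D1:**
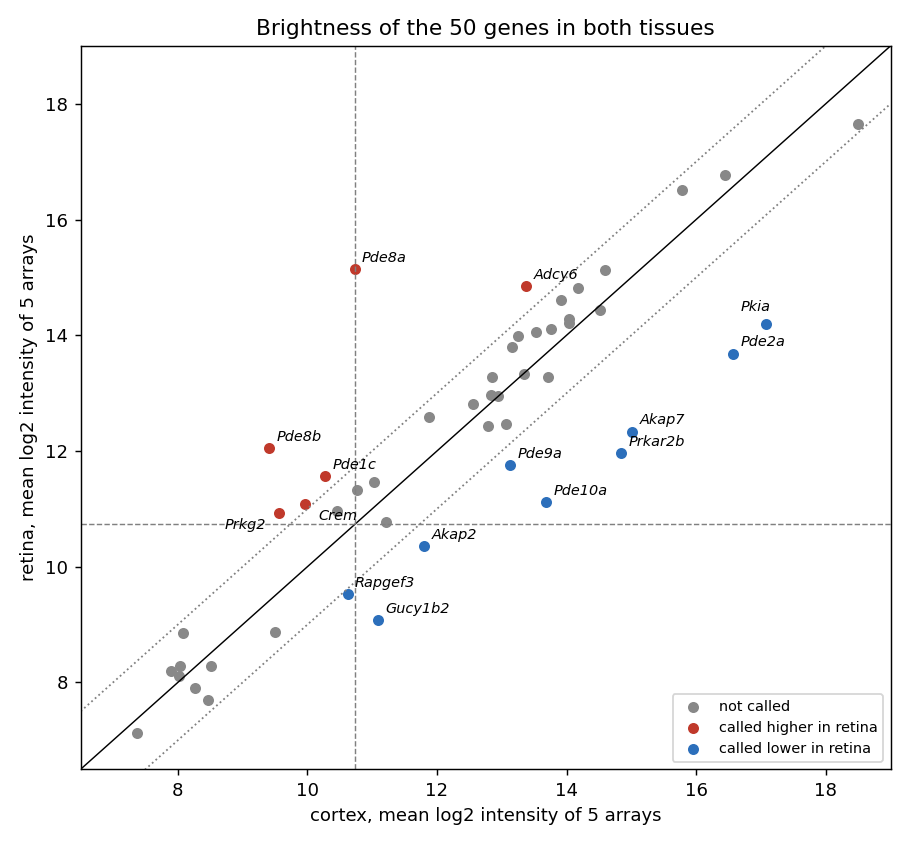
Mean log2 intensity of each of the 50 genes in retina (vertical axis) and cortex (horizontal axis), 5 arrays each. The solid line marks equal levels, dotted lines 2-fold differences and dashed lines the olfactory receptor yardstick of 10.74. Most genes lie near the line of equal levels, and the 15 called genes are named.

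The largest difference of the set was in breakdown of cyclic AMP. Both genes of the PDE8 family, high-affinity phosphodiesterases that act on cyclic AMP and not on cyclic GMP, were higher in retina. Pde8a (probe 402914) read 14.93, 15.35, 15.30, 15.08 and 15.08 on the 5 retina arrays, against 10.53, 10.92, 10.93, 10.56 and 10.73 on the 5 cortex arrays. The lowest retina array lay far above the highest cortex array, with a difference of 4.41 (SE 0.10, 21.3-fold, limma adjusted p = 7.14e-16), and the cortex mean of 10.73 was at the dim yardstick. Pde8b (probe 592831) read 12.00, 12.06, 12.08, 12.10 and 12.01 in retina, against 9.22, 9.77, 9.30, 8.92 and 9.83 in cortex. Its retina arrays agreed closely and its cortex arrays, all dim, spread over nearly a log2 unit, with a difference of 2.64 (SE 0.19, 6.25-fold, limma adjusted p = 2.39e-09). With both cortex means below the yardstick, the sizes of these changes, and so their rank in the set, are uncertain.

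The promoter window of Pde8a, the gene with the largest difference of the set, is shown from RefSeq (GRCm38.p6, 300 bases around the annotated start, chr7:81213015-81213314, plus strand). Capitals mark TGACG, the core of the cyclic AMP response element (CRE) that CREB1, CREM and ATF1 bind.
Pde8a: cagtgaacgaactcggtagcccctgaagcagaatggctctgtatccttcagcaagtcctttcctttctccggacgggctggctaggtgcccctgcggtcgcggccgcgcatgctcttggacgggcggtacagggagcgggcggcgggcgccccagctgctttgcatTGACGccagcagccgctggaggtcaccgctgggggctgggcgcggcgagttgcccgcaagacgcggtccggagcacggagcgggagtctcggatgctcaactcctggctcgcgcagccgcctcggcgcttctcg

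The PDE4 family, the cyclic AMP phosphodiesterases inhibited by rolipram, showed no call among its 4 genes. Pde4b averaged 13.81 ± 0.05 in retina, against 13.16 ± 0.14 in cortex (SD, n = 5), which gave a difference of 0.64 (limma adjusted p = 4.08e-07) with no overlap between the arrays. Pde4a averaged 11.33 ± 0.19 in retina, against 10.76 ± 0.10 in cortex, which gave a difference of 0.57 (limma adjusted p = 0.00245). Both therefore had a higher mean in retina by less than 2-fold after quantile normalization. Their differences were 0.26 for Pde4b and 0.07 for Pde4a without normalization between arrays. Pde4d varied so widely between repeats, from 9.10 to 11.93 in retina and from 10.19 to 12.11 in cortex, that its 95% interval ran from -1.36 to 0.48, and Pde4c was dim in both tissues.

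Phosphodiesterases that act on cyclic GMP, or on both messengers, moved in both directions: of 6 genes, 3 were lower and 1 was higher. The share called was 66.7% in this small group, against 29.0% of named genes. Pde2a, whose enzyme breaks down both messengers and is stimulated by cyclic GMP, read 13.79, 13.68, 13.71, 13.62 and 13.61 in retina (probe 641678), against 16.53, 16.61, 16.59, 16.56 and 16.58 in cortex. All 10 values were far above the yardstick, repeats lay close together, and the difference was -2.89 (SE 0.05, 7.41-fold, limma adjusted p = 1.11e-17). Pde10a, a dual phosphodiesterase best known from medium spiny neurons of the striatum, read 10.96, 11.36, 10.65, 11.41 and 11.21 in retina (probe 919791), against 13.77, 13.61, 13.64, 13.73 and 13.67 in cortex. It fell by 2.57 on the log2 scale (SE 0.12, 5.92-fold, limma adjusted p = 1.17e-11), and its retina arrays straddled the yardstick. Pde9a, a high-affinity phosphodiesterase for cyclic GMP, read 11.56, 11.69, 11.89, 12.02 and 11.59 in retina (probe 906020), against 13.16, 13.19, 13.07, 12.99 and 13.24 in cortex. The highest retina array lay below the lowest cortex array, with a difference of -1.38 (SE 0.10, 2.60-fold, limma adjusted p = 2.01e-09).

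The PDE1 enzymes, switched on by calcium and calmodulin, had higher means in retina. Pde1c read 11.53, 11.64, 11.70, 11.67 and 11.31 in retina (probe 337982), against 9.91, 10.46, 10.27, 10.43 and 10.28 in cortex. The cortex arrays were all dim and the groups did not overlap, with a difference of 1.30 (SE 0.16, 2.46-fold, limma adjusted p = 1.76e-06). Without normalization between arrays this difference was 0.80, under the 2-fold minimum. Pde1b averaged 14.82 ± 0.10 in retina, against 14.18 ± 0.06 in cortex (SD, n = 5) and was not called, with a difference of 0.64 (limma adjusted p = 2.42e-08). Pde5a, the cyclic GMP phosphodiesterase of smooth muscle that sildenafil inhibits, was at 12.43 ± 0.24 in retina and 12.78 ± 0.14 in cortex with overlapping arrays, a difference of -0.35 (95% interval -0.59 to -0.12).

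The rule also took in Pde4dip, which encodes the centrosome and Golgi protein myomegalin, and Pde12, which encodes an exonuclease of mitochondria. Neither encodes a cyclic nucleotide phosphodiesterase, and neither was called, at 0.24 (95% interval 0.12 to 0.37) and -0.43 (-0.56 to -0.31). For contrast, all 7 measured genes with Pde6 symbols or for photoreceptor guanylyl cyclases were higher in retina: Pde6b by 10.80, Pde6a by 9.42, Pde6c by 7.68, Pde6h by 6.22, Gucy2f by 3.07, Gucy2e by 2.62 and Pde6d by 1.53 on the log2 scale. Pde6d was bright in both tissues, at 17.94 in retina and 16.41 in cortex, so it is not particular to photoreceptors on these arrays. The cortex means of Pde6a, Pde6b and Pde6c (7.51, 8.17 and 7.65) were dim, so the sizes of their differences are uncertain. Gucy2e and Gucy2f, which encode the photoreceptor guanylyl cyclases, lay below the yardstick in both tissues on these probes. The difference between these 7 genes and the 50 was not tested.

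**Figure D2:**
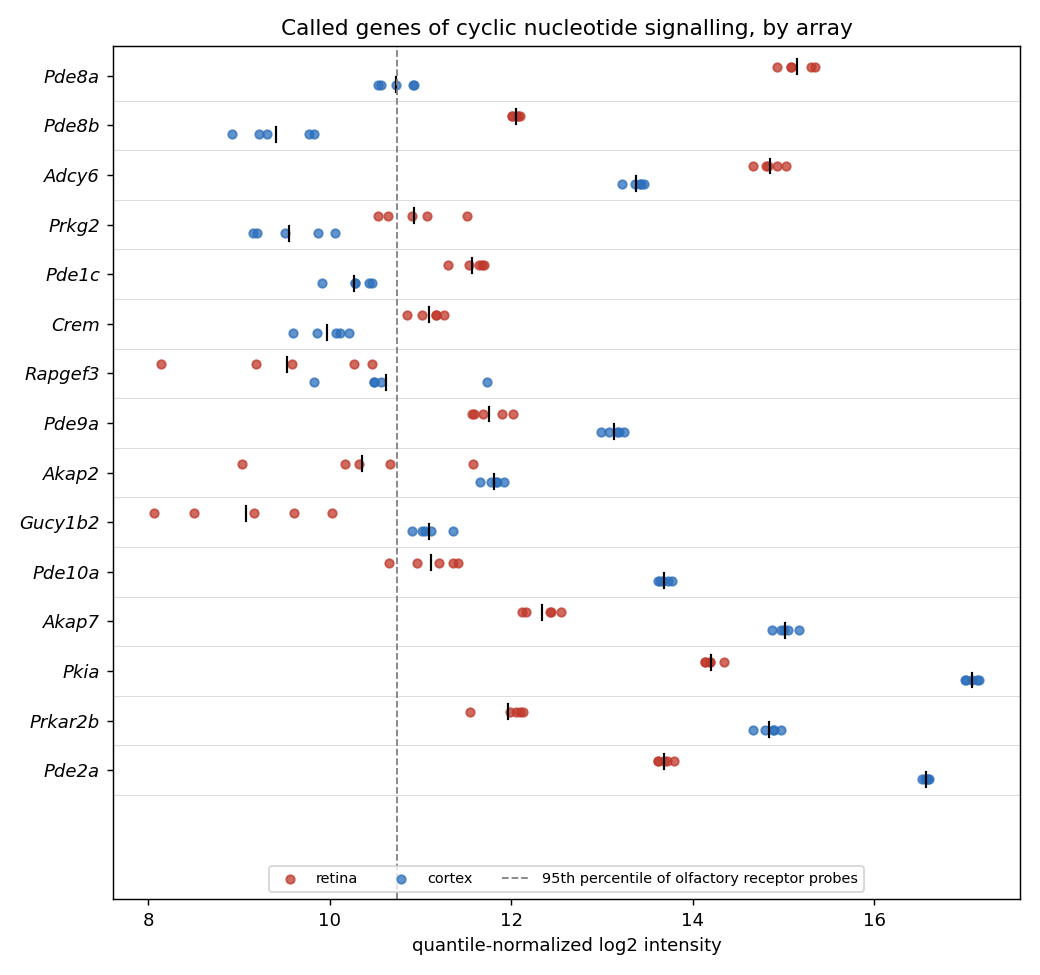
Quantile-normalized log2 intensity of the 15 called genes on each array. Points are single arrays, retina above and cortex below in each row, black ticks are means of 5 arrays, and the dashed line is the olfactory receptor yardstick. Rapgef3 is the gene whose tissues overlap, and the retina arrays of Akap2 and Gucy1b2 are widely spread.

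Among the enzymes that make the messengers, 1 of 8 adenylyl cyclase genes was called (12.5%, against 29.0% of named genes). Adcy6, a cyclase inhibited by calcium, read 15.03, 14.81, 14.93, 14.83 and 14.67 in retina (probe 333586), against 13.43, 13.42, 13.22, 13.47 and 13.36 in cortex. It was bright in both tissues and the only called member of the 32 bright genes that was higher in retina, with a difference of 1.47 (SE 0.07, 2.78-fold, limma adjusted p = 8.31e-12). Adcy2, a cyclase stimulated by G protein beta-gamma subunits (16.51 ± 0.21 in retina, 15.78 ± 0.10 in cortex) and Adcy8, a cyclase stimulated by calcium and calmodulin (14.06 ± 0.05 and 13.53 ± 0.15), did not overlap between tissues. Their differences of 0.72 and 0.53 stayed under 2-fold (limma adjusted p = 1.09e-06 and 4.72e-06). Adcy9, a widely expressed cyclase, was at 12.95 ± 0.15 in retina, against 12.94 ± 0.05 in cortex, which gave a difference of 0.01 with a 95% interval from -0.15 to 0.17. The other 4, namely Adcy3, the cyclase of olfactory and neuronal cilia, Adcy10, the soluble cyclase stimulated by bicarbonate, Adcy4 and Adcy7, were dim in both tissues.

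Soluble guanylyl cyclase, the receptor of nitric oxide, pairs an alpha with a beta subunit. Gucy1a1, the alpha-1 subunit gene, was bright and near equal, at 14.50, 14.52, 14.35, 14.36 and 14.42 in retina (probe 533518), against 14.55, 14.57, 14.54, 14.34 and 14.54 in cortex. The difference was -0.08 (95% interval -0.20 to 0.04, limma adjusted p = 0.307), and cortex replicate 4 stood below the other 4 cortex arrays. Gucy1b2, the beta-2 subunit gene, read 10.02, 8.50, 9.16, 8.06 and 9.61 in retina (probe 504819), against 11.11, 10.91, 11.05, 11.36 and 11.02 in cortex. It was lower in retina (difference -2.02, SE 0.32, 4.05-fold, limma adjusted p = 4.76e-05), with all retina arrays dim and widely spread. With an offset before the log, which damps dim signal, the difference was -1.32.

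The natriuretic peptide receptors measured here, NPR1 and NPR2, are guanylyl cyclases of the cell membrane. Npr2, the receptor of C-type natriuretic peptide, averaged 13.27 ± 0.10 in retina, against 12.85 ± 0.05 in cortex (SD, n = 5). Its arrays did not overlap, and its difference of 0.42 (limma adjusted p = 2.85e-05) was under 2-fold. Npr1, the receptor of atrial natriuretic peptide, was dim in both tissues, at 7.70 ± 0.52 in retina and 8.47 ± 0.66 in cortex.

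PKA subunit genes divided by isoform. Prkar2b, which encodes the RII-beta regulatory subunit common in neurons, read 12.05, 12.13, 11.55, 12.09 and 11.98 in retina (probe 743151), against 14.90, 14.89, 14.97, 14.66 and 14.80 in cortex. It was 7.39-fold lower in retina (difference -2.88, SE 0.10, limma adjusted p = 1.32e-13), and retina replicate 3 was the lowest of its group. Prkar2a, which encodes RII-alpha, read 15.04, 15.16, 15.17, 15.19 and 15.04 in retina (probe 887925), against 14.60, 14.55, 14.61, 14.62 and 14.56 in cortex, a difference of 0.53 (SE 0.05, limma adjusted p = 3.86e-08) that was not called. The within-array log2 ratio of Prkar2a over Prkar2b was 2.99 to 3.63 on retina arrays and -0.36 to -0.04 on cortex arrays, so the balance of the RII probes shifted by 3.42 log2 units.

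The RI subunit genes showed a smaller shift the same way. Prkar1a averaged 16.77 ± 0.04 in retina, against 16.44 ± 0.07 in cortex (SD, n = 5), which gave a difference of 0.32 (limma adjusted p = 1.25e-05). Prkar1b, the RI-beta gene of brain, averaged 17.64 ± 0.05 in retina, against 18.49 ± 0.02 in cortex, which gave a difference of -0.85 (limma adjusted p = 6.07e-11). Neither reached 2-fold after quantile normalization, although Prkar1b did without normalization (-1.42) and passed limma's test against a 1.5-fold difference. In the setting without normalization Prkar1a was at -0.07 and Prkar2a at 0.15, so their higher means in retina depended on the scaling. The within-array ratio of Prkar1a over Prkar1b ran from -0.97 to -0.83 in retina, against -2.19 to -1.94 in cortex. Prkaca, the catalytic subunit gene, was at 13.32 ± 0.09 in retina, against 13.34 ± 0.14 in cortex, which gave a difference of -0.01 with a 95% interval from -0.17 to 0.14.

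Promoter windows are shown for Prkar2b, the PKA subunit gene that was called, and for Prkar1a, whose windows alone among those of the 50 genes held the full CRE, TGACGTCA. Both are from RefSeq, GRCm38.p6: Prkar2b at chr12:32061228-32061527 on the minus strand and Prkar1a at chr11:109650699-109650998 on the plus strand. Capitals mark TGACG or TGACGTCA, and the Prkar2b window held neither. Each gene has other annotated starts that are not shown.
Prkar2b: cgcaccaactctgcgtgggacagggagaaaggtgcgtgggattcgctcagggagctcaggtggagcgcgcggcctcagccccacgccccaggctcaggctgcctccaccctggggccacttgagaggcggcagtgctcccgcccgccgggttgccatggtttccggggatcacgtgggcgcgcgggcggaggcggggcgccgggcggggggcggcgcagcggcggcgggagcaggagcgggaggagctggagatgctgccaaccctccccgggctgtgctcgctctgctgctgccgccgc
Prkar1a: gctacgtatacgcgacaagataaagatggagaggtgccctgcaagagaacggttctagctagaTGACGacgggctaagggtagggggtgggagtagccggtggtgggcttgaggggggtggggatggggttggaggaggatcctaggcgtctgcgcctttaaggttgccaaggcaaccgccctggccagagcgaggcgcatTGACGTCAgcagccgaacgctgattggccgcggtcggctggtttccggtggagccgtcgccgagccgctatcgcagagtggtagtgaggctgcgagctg

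Of the 50 genes, 42 had a window in the promoter table, 83 windows in all. TGACGTCA, searched on both strands, was in 2 of these windows (2.41%) and in 1.79% of all 32851 windows of the table. Both were overlapping windows of Prkar1a that held the same site. TGACG, which is part of TGACGTCA, was in 20.5% of the windows of these genes and in 20.8% of all windows. TAATCC, the core of the site that the photoreceptor factor CRX binds, was in 3 of the 83 windows (3.61%) and in 7.06% of all windows. It was in 0 of the 9 windows of the genes higher in retina that the table held, where 3 of the 6 genes had windows. Some of these 9 windows overlap, and counts so small cannot show whether the shares differ. These shares describe the letters of the windows and not binding.

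Inhibitors of PKA bind its catalytic subunit and carry it out of the nucleus. Pkia, the alpha inhibitor gene, read 14.35, 14.18, 14.13, 14.13 and 14.18 in retina (probe 479052), against 17.16, 17.13, 17.07, 17.00 and 17.01 in cortex. It was bright in both tissues and 7.35-fold lower in retina (difference -2.88, SE 0.05, limma adjusted p = 4.08e-17), with retina replicate 1 above the other retina arrays. Pkig, the gamma inhibitor gene, was at 11.46 ± 0.32 in retina, against 11.03 ± 0.36 in cortex (SD, n = 5), with overlapping arrays and an adjusted p of 0.0771 by limma. The within-array log2 ratio of Pkig over Pkia ran from -3.03 to -2.49 in retina, against -6.62 to -5.57 in cortex. Pkib was dim, from 6.70 to 10.42 in retina and from 7.63 to 8.46 in cortex.

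Protein kinase G genes were close to the yardstick in retina and below it in cortex. Prkg2, the membrane-bound kinase, read 10.90, 10.64, 11.07, 11.51 and 10.53 in retina (probe 889958), against 9.50, 9.20, 10.05, 9.15 and 9.87 in cortex. The groups did not overlap and it was called higher, by 1.38 (SE 0.25, 2.60-fold, limma adjusted p = 0.000186). This call was lost without normalization (0.87) and with an offset of 500 before the log (0.96). Prkg1, the soluble kinase of smooth muscle and some neurons, was at 10.96 ± 0.30 in retina, against 10.46 ± 0.28 in cortex on its brightest probe, which gave a difference of 0.50 (limma adjusted p = 0.0468). Its other probe gave 0.38 (limma adjusted p = 0.406).

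Anchoring proteins tether PKA near its substrates. Of 8 genes, 2 were called, both lower in retina, a share of 25% against 29.0% of named genes. Akap7, whose product tethers PKA to ion channels in muscle and neurons, read 12.43, 12.11, 12.16, 12.44 and 12.55 in retina (probe 661069), against 14.88, 15.01, 14.97, 15.17 and 15.05 in cortex. All its values were above the yardstick and the difference was -2.68 (SE 0.09, 6.40-fold, limma adjusted p = 4.66e-14). Akap2, which shares a locus with Palm2, read 10.33, 10.66, 9.03, 11.57 and 10.16 in retina (probe 860539), against 11.92, 11.83, 11.65, 11.85 and 11.78 in cortex. Retina replicate 4 came close to the lowest cortex array while replicate 3 was far below it, and the difference was -1.46 (SE 0.32, limma adjusted p = 0.000965). The retina mean of Akap2, 10.35, was below the yardstick, so the size of this difference is uncertain.

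The other bright anchoring genes differed by less than 2-fold. Akap8l, a nuclear protein gene related to Akap8, averaged 14.62 ± 0.13 in retina, against 13.91 ± 0.09 in cortex (SD, n = 5), which gave a difference of 0.71 (limma adjusted p = 7.05e-08). Akap12, which encodes the scaffold gravin, averaged 12.47 ± 0.14 in retina, against 13.06 ± 0.12 in cortex, which gave a difference of -0.59 (limma adjusted p = 1.36e-05). Both had arrays that did not overlap. Akap10, with a mitochondrial anchor, and Akap8, the nuclear anchor AKAP95, overlapped between tissues, at 0.26 (95% interval 0.03 to 0.48) and 0.13 (-0.06 to 0.32).

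Rap exchange factors switch on the small GTPase Rap1, and among those measured Rapgef3 encodes Epac1, which cyclic AMP binds. Rapgef3 (probe 887721) read 8.14, 10.46, 9.18, 10.27 and 9.58 in retina, against 10.48, 9.82, 11.73, 10.49 and 10.57 in cortex. The groups overlapped and both means were dim. It was called lower at the threshold (difference -1.09, SE 0.42, limma adjusted p = 0.0415), and the call was lost when any 1 of 7 arrays was left out, with differences from -1.32 to -0.75 over the 10 single arrays. Those 7 were retina replicates 1, 3 and 5 and cortex replicates 1, 3, 4 and 5. Rapgef5 averaged 13.98 ± 0.12 in retina, against 13.25 ± 0.09 in cortex (SD, n = 5), which gave a difference of 0.73 (limma adjusted p = 6.1e-08) that was under 2-fold, and Rapgef1, whose product acts downstream of Crk adaptor proteins, was at 0.17 (95% interval 0.01 to 0.34).

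The 3 transcription factor genes that act on cyclic AMP response elements had higher means in retina on their brightest probes after quantile normalization, with no overlap between arrays. Crem, which gives rise to activators and to repressors of transcription, read 10.85, 11.17, 11.25, 11.17 and 11.01 in retina (probe 927419), against 10.21, 9.60, 9.86, 10.07 and 10.11 in cortex. It was the one that reached the fold minimum, with a difference of 1.12 (SE 0.18, 2.18-fold, limma adjusted p = 5.5e-05), from cortex values below the yardstick. Without normalization the difference was 0.61 and with the offset of 500 it was 0.83, both short of 2-fold. Atf1 averaged 12.59 ± 0.32 in retina, against 11.88 ± 0.13 in cortex (SD, n = 5), which gave a difference of 0.71 (limma adjusted p = 0.000188). Creb1 averaged 14.11 ± 0.08 in retina, against 13.76 ± 0.08 in cortex on its brightest probe, which gave a difference of 0.35 (limma adjusted p = 6.32e-05), and its other probes gave 0.96 and 0.23 with overlapping arrays. Without normalization the difference of the brightest Creb1 probe was -0.04.

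**Figure D3:**
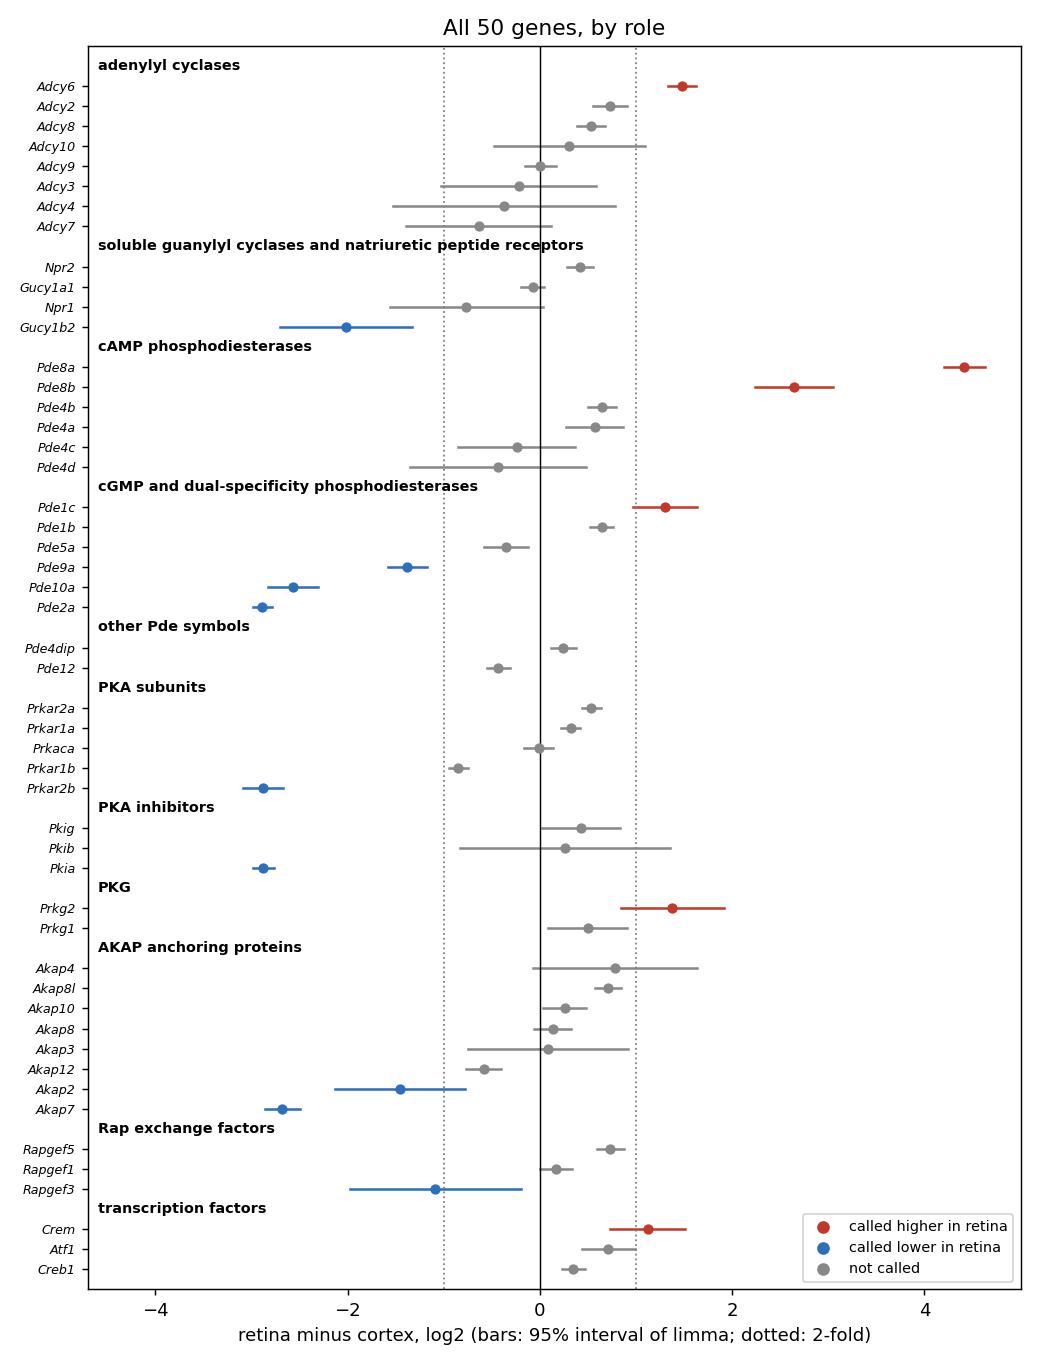
Difference of retina minus cortex on the log2 scale for all 50 genes, grouped by role. Points are limma estimates from 5 arrays a tissue, bars are 95% intervals and dotted lines mark 2-fold. Pde8a and Pde8b stand furthest to the right, and Pde2a, Prkar2b, Pkia, Akap7 and Pde10a furthest to the left, between -2.89 and -2.57.

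Receptors, transmitters and partners that feed into or follow these genes were taken as a further list, of which 29 of 40 genes were measured. In retina 7 of them were higher and 9 lower, 13 were not called, and the median difference was -0.11. Over all named genes 29.0% were called. The list was chosen by hand with earlier results of these data known, so its counts only describe the genes listed. The list held 4 dopamine receptor genes and not Drd3, and these 4 were higher in retina. Drd4, which is coupled to lower cyclic AMP and known from photoreceptors, was at 17.76 ± 0.14 in retina, against 9.51 ± 0.56 in cortex (SD, n = 5, difference 8.24). Drd2 was higher by 2.69, Drd5 by 1.99 and Drd1 by 1.56. The vasoactive intestinal peptide gene Vip (3.02) and its receptor gene Vipr2 (4.39), coupled to adenylyl cyclase, were higher as well, while Vipr1 was not called (-0.26). The seventh was Nppb, a natriuretic peptide gene, at 1.46 from dim and overlapping values. The cortex means of Drd4, Drd5 and Vipr2 (9.51, 8.81 and 7.70) were below the yardstick, so the sizes of these differences are uncertain.

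The 9 genes that were lower in retina included ligands as well as effectors. Adcyap1, the gene of the neuropeptide PACAP, was at -1.48, and Nppc, the gene of the peptide that NPR2 binds, at -2.57. Gnai3, an inhibitory G protein subunit gene, was at 14.62 ± 0.09 in retina, against 16.37 ± 0.04 in cortex (SD, n = 5), which gave a difference of -1.75, and Rap1b, a target of the exchange factors, at -1.32. Substrates of PKA were lower too, namely Ppp1r1b, which encodes DARPP-32 (-1.83), Arpp19 (-1.24) and Arpp21 (-7.28). Prkx, a kinase gene related to PKA, was at -1.32, and Nos1, a nitric oxide synthase gene, at -1.65 from dim values. The retina means of Arpp21, Nppc and Prkx (8.78, 9.80 and 9.92) were below the yardstick, which leaves the sizes of their differences uncertain. Gnas, the stimulatory G protein gene, was not called, at 18.77 ± 0.11 in retina and 18.87 ± 0.06 in cortex.

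How the arrays were scaled moved the balance of the small differences. Without normalization the median of all 33012 probes was -0.41 and that of the 50 genes -0.18, against -0.01 and 0.21 after quantile normalization. The calls then became 3 higher and 12 lower: Pde1c, Prkg2 and Crem were no longer called, and Adcy7, Npr1 and Prkar1b were called lower. Over all probes, 24.5% of calls were then higher in retina, against 47.6% after quantile normalization and 53.5% after median centring. Among the 18 genes under 2-fold, the signs of Prkar1a, Creb1, Prkg1 and Pde4dip turned negative without normalization. Other positive differences kept their sign but shrank, such as Npr2 to 0.04, Pde4a to 0.07, Adcy8 to 0.14, Prkar2a to 0.15 and Atf1 to 0.29. Relative to the median of all probes the sign was kept in 18 of 18. Taking off that median is itself a scaling, and it gave differences near the quantile-normalized ones. For Creb1 they were 0.37 against 0.35, and for Prkar1b -1.01 against -0.85. The 18 of 18 is therefore no independent check of these small differences. Pde8a, Pde8b, Adcy6, Pde2a, Pde10a, Pde9a, Prkar2b, Pkia, Akap7, Akap2 and Gucy1b2 were called in the same direction under all 4 scalings plotted.

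**Figure D4:**
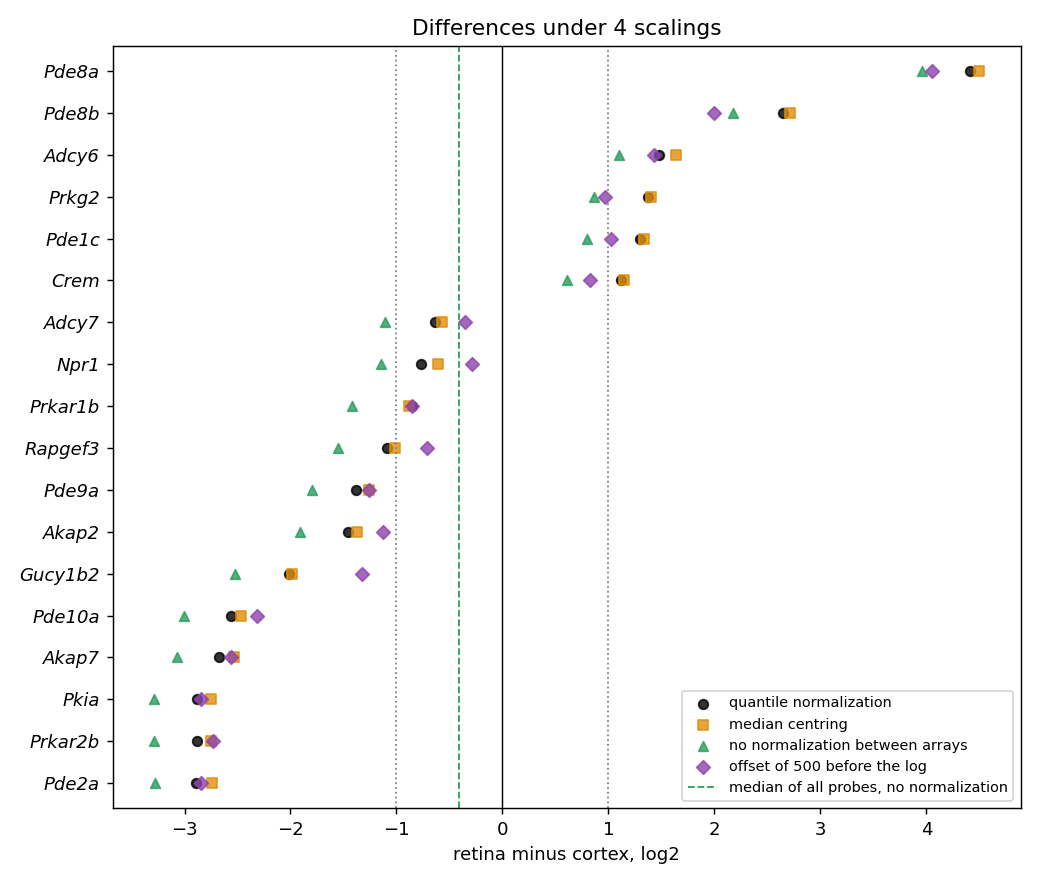
Difference of retina minus cortex on the log2 scale for the 15 called genes and for Adcy7, Npr1 and Prkar1b under quantile normalization, median centring, no normalization between arrays and an offset of 500 before the log. Dotted lines mark 2-fold, and the dashed line at -0.41 is the median of all probes without normalization. The points without normalization lie to the left of the quantile-normalized ones throughout.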

How the data were processed

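Transcript levels were measured on 10 single-channel Applied Biosystems arrays with digoxigenin-labelled cRNA made from 1 µg of total RNA, per the labels' protocols. The linear intensity values deposited by the authors were all positive. How background was corrected and whether arrays were normalized is not given in the sources used here. The number of arrays limits technical precision only, and with 1 RNA pool per tissue the spread between animals was not measured. Groups and replicate numbers came from sample titles.

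Intensities were put on the log2 scale, quantile-normalized and compared with limma 3.58.1 in R 4.3.3 (lmFit and eBayes, trend on mean intensity, 2-sided tests over all 33012 probes). All differences are retina minus cortex, and SE are limma's after shrinkage. The scripts were tested on simulated data. The platform annotation gave 1 symbol to 14411 probes, several to 247 and none to 18354. Of the 50 genes, 49 matched a RefSeq gene of the same symbol, and Akap2 did not.

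The genes, their role groups, the further pathway list and the markers were chosen with earlier results of these data known. Genes described by array were the up to 3 largest differences per role group among called, non-overlapping genes whose brighter tissue passed the yardstick, plus called genes against the direction of their group. This gave 14 genes, and other genes are examples chosen after their values were seen. The same-numbered arrays did not deviate together (correlations -0.03 to 0.06), so numbers were not taken as pairs. Alternatives were other scalings, no trend, an offset of 500, a dim-probe filter, limma's treat, averaged probes, single arrays left out and a replicate block.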

Additional observations from a re-analysis of the deposited data

Results flagged for a closer look

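In 4 of the 100 sets of 5 arrays (50 genes in 2 tissues), 1 array lay so far from the others that its gap exceeded Dixon's 95% critical value of 0.71 of the range. Chance flags about 1 set in 20, so a share of 4% is no more than that. Prkar2b was at 11.55 on retina replicate 3, against 11.98 to 12.13 on the other retina arrays. Pkia was at 14.35 on retina replicate 1, against 14.13 to 14.18 on the others. Gucy1a1 was at 14.34 on cortex replicate 4, against 14.54 to 14.57, and Rapgef1 was at 14.28 on cortex replicate 4, against 13.92 to 14.02. The calls of Prkar2b and Pkia kept their direction without the array concerned.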

How the results depend on the processing

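The count of called genes higher in retina was 6 and of those lower 9. Without normalization between arrays they were 3 and 12, the median of the 50 genes was -0.18 in place of 0.21, and calls per role group became 2 adenylyl cyclases, 2 genes of soluble guanylyl cyclase and natriuretic peptide receptors, 2 PKA subunits, 0 PKG genes and 0 transcription factors (1 each before). With median centring the median was 0.36. With an offset of 500 before the log, 0 PKG genes, 0 transcription factors and 0 Rap exchange factors were called, and 6138 probes in all in place of 8379. Without the intensity trend 0 Rap exchange factors were called. With treat against 1.5-fold 0 Rap exchange factors and 2 PKA subunits were called. Leaving out single arrays gave 0 to 1 Rap exchange factors, which is Rapgef3, and 8 or 9 genes lower. No called gene turned its sign under any alternative run. With the replicate number as a block the counts were 6 and 9 and 8398 probes were called in all, and every called gene kept its call. Same-numbered arrays correlated best with each other in 1 of 5 cases. Averaged probes, the dim-probe filter (41 of 50 genes fitted) and leaving out cortex replicate 2 or retina replicate 2 or 4 changed no call among the 50 genes. Dim signal limits 18 of the 50 genes, which lay below the yardstick in at least 1 tissue.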
